A study of Homo sapiens with 8 samples.

Results

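The transcripts described here belong to 9 genes of Nodal signalling in human embryonic stem cells (ESCs). They were chosen by symbol and are the ligands NODAL and GDF3, the coreceptor TDGF1, the nuclear factor FOXH1, the secreted inhibitors LEFTY1, LEFTY2 and CER1, and the intracellular regulators SMAD7 and SKIL. All 9 had a row among the 27317 symbols of the count tables, and all 9 were among the 17268 genes that passed the filter on low counts. RNA was sequenced from Mel1, an established human ESC line with no stated genetic change, in 4 groups of 2 libraries. At D2 one group had been exposed to 2 nM TCDD at the ESC stage and its control to the solvent DMSO, and both had then spent 2 days in cardiac differentiation medium, which holds B27 without insulin, with 5 µM of the GSK3 inhibitor CHIR99021. At D1, just before differentiation, a TCDD-exposed group and a DMSO group of ESCs were taken. DMSO stayed below 0.1% in every group. TCDD is a dioxin that activates the aryl hydrocarbon receptor (AHR), a ligand-dependent transcription factor, and the study asked which genes it changed in ESCs and in early mesoderm. Not given in the sources used here are the length of the exposure and whether the replicates are separate cultures, so p-values measure the spread between these libraries alone, which may be technical.

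Nodal is a secreted TGF-beta family ligand that binds activin receptors together with an EGF-CFC coreceptor such as TDGF1 (Cripto). The receptors phosphorylate SMAD2 and SMAD3, which enter the nucleus with SMAD4 and act at target genes with partners such as FOXH1. Among the targets are NODAL itself and its inhibitors LEFTY1 and LEFTY2, so the pathway holds a positive and a negative feedback loop. In the embryo, Nodal together with Wnt signalling sets up the primitive streak, from which mesoderm and endoderm arise. In human ESCs the same SMAD2 and SMAD3 branch helps to maintain pluripotency.

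Promoters of 3 of the genes are shown because their genes gave different patterns: CER1 was lower with TCDD, GDF3 was lower with TCDD at D2, and SMAD7 was higher with TCDD at D1. Each is the 250 bases before a RefSeq gene start on GRCh38.p14, read 5′ to 3′ on the minus strand. They lie at chr9:14722734-14722983 for CER1, chr12:7695776-7696025 for GDF3 and chr18:48949334-48949583 for the second of 3 SMAD7 starts. Capitals mark a FOXH1 motif in CER1 and the core of the AHR response element in SMAD7, on either strand.
CER1: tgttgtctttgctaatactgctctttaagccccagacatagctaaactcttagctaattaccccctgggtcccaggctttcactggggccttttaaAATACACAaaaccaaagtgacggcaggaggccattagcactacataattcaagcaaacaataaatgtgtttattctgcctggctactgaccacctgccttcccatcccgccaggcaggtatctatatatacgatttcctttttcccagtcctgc
GDF3: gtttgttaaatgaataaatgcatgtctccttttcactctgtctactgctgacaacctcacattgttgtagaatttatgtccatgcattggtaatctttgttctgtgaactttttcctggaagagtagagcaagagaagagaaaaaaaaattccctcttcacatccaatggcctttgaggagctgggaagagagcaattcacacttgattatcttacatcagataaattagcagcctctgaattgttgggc
SMAD7: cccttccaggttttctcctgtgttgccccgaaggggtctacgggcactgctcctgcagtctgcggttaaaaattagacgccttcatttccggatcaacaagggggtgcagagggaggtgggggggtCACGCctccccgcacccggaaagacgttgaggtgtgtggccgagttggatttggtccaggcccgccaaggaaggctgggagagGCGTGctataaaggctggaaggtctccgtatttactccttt
RefSeq promoters were found for 5 of the 9 genes, namely NODAL, GDF3, CER1, SMAD7 and SKIL, and 4 motifs were searched on both strands over 300 bases, from 250 before to 50 after each start. The FOXH1 motif, AATCCACA or AATACACA, was found once, as AATACACA starting 154 bases before the CER1 start, and it occurs in 1.58% of 35116 promoters of that length. The AHR core GCGTG, whose other strand reads CACGC, was found at 124 and 41 bases before the second SMAD7 start, and at 17 and 44 bases after the NODAL start. It was found at neither the first nor the third SMAD7 start. Counted per single promoter, it is present in 36.5% of all promoters, and SMAD7 had 3 windows searched. The SMAD palindrome GTCTAGAC (0.202% of promoters) and the TCF/LEF motif CTTTGAT (2.62%) were found in none of these windows, and the motifs do not overlap each other. A match describes these letters only.

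Library totals ran from 34873055 to 43770420 counts, and levels below are in edgeR's CPM, each count relative to its library's scaled total. CYP1A1, an AHR target that shows the exposure, was higher with TCDD by 2.56 at D2 and 6.82 at D1 on the log2 scale (edgeR adjusted p = 0.000176 and 2.03e-15). The 7 ESC markers, none at 0 in any library, summed to 4978 to 5111 CPM with TCDD and 4682 to 4772 CPM with DMSO at D2. At D1 they summed to 5625 to 5909 CPM with TCDD and 5866 to 6233 CPM with DMSO. Only SOX2 of the 7 passed at D2, higher with TCDD at a mean of 361 CPM against 240 CPM with DMSO. Its log2 fold change was 0.59 (edgeR adjusted p = 8.47e-07), and none of the 7 passed at D1. The 7 primitive streak and mesoderm markers summed to 296.5 to 332 CPM with TCDD and 614 to 655 CPM with DMSO at D2, and to 11.6 to 12.3 CPM with TCDD and 11.92 to 11.95 CPM with DMSO at D1. Of 6 definitive endoderm markers, SOX17 was at 0 in 6 libraries, and their sum at D2 was 15.2 to 17.5 CPM with TCDD and 16.7 to 17.4 CPM with DMSO. Among the 4 of them tested, only GATA6 passed at D2, at low means of 0.335 CPM with TCDD and 0.957 CPM with DMSO. Its log2 fold change was -1.53 (edgeR adjusted p = 0.00986). For LEFTY1, LEFTY2, CER1, GDF3, FOXH1 and SMAD7 the DMSO replicates of D1 differed more than the TCDD replicates. For NODAL, TDGF1 and SKIL the TCDD replicates of D1 differed more. Over genes with at least 20 counts, chi-square per gene between replicates was 6.59 with TCDD and 3.86 with DMSO at D1. Results at D1 are therefore also given without single libraries where that changed them.

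With TCDD the secreted inhibitors LEFTY1, LEFTY2 and CER1 were lower than with DMSO at both times, while the NODAL transcript did not pass the test at either. GDF3 was lower and FOXH1 higher at D2, and SMAD7 was higher and SKIL lower at D1. TDGF1, the most abundant of the 9 transcripts per length in all 4 groups, did not pass at either time. At D2, 4 of the 9 genes were lower, against 1.54% of all genes tested, and 1 was higher, against 1.41%. At D1 again 4 were lower, against 0.434% of all genes, and 1 was higher, against 0.764%. With a library left out, 5 to 6 of the 9 were past the threshold at D2 and 2 to 4 at D1, with 2 where replicate 1 of TCDD or of DMSO at D1 was missing. The genes lower at both times were 3, LEFTY1, LEFTY2 and CER1. The share of all genes lower at both times was not counted and can be at most the 0.434% of D1. When each library was left out in turn, LEFTY1 passed at D1 in 8 of 8 fits, LEFTY2 in 6 of 8 and CER1 in 1 of 8. The median log2 fold change of the 9 was -0.17 at D2 and -0.25 at D1, and that of all genes was 0.001 and 0. In bulk RNA, fewer cells of a type and less RNA per cell cannot be told apart, and this applies to each difference below.

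**Figure D1:**
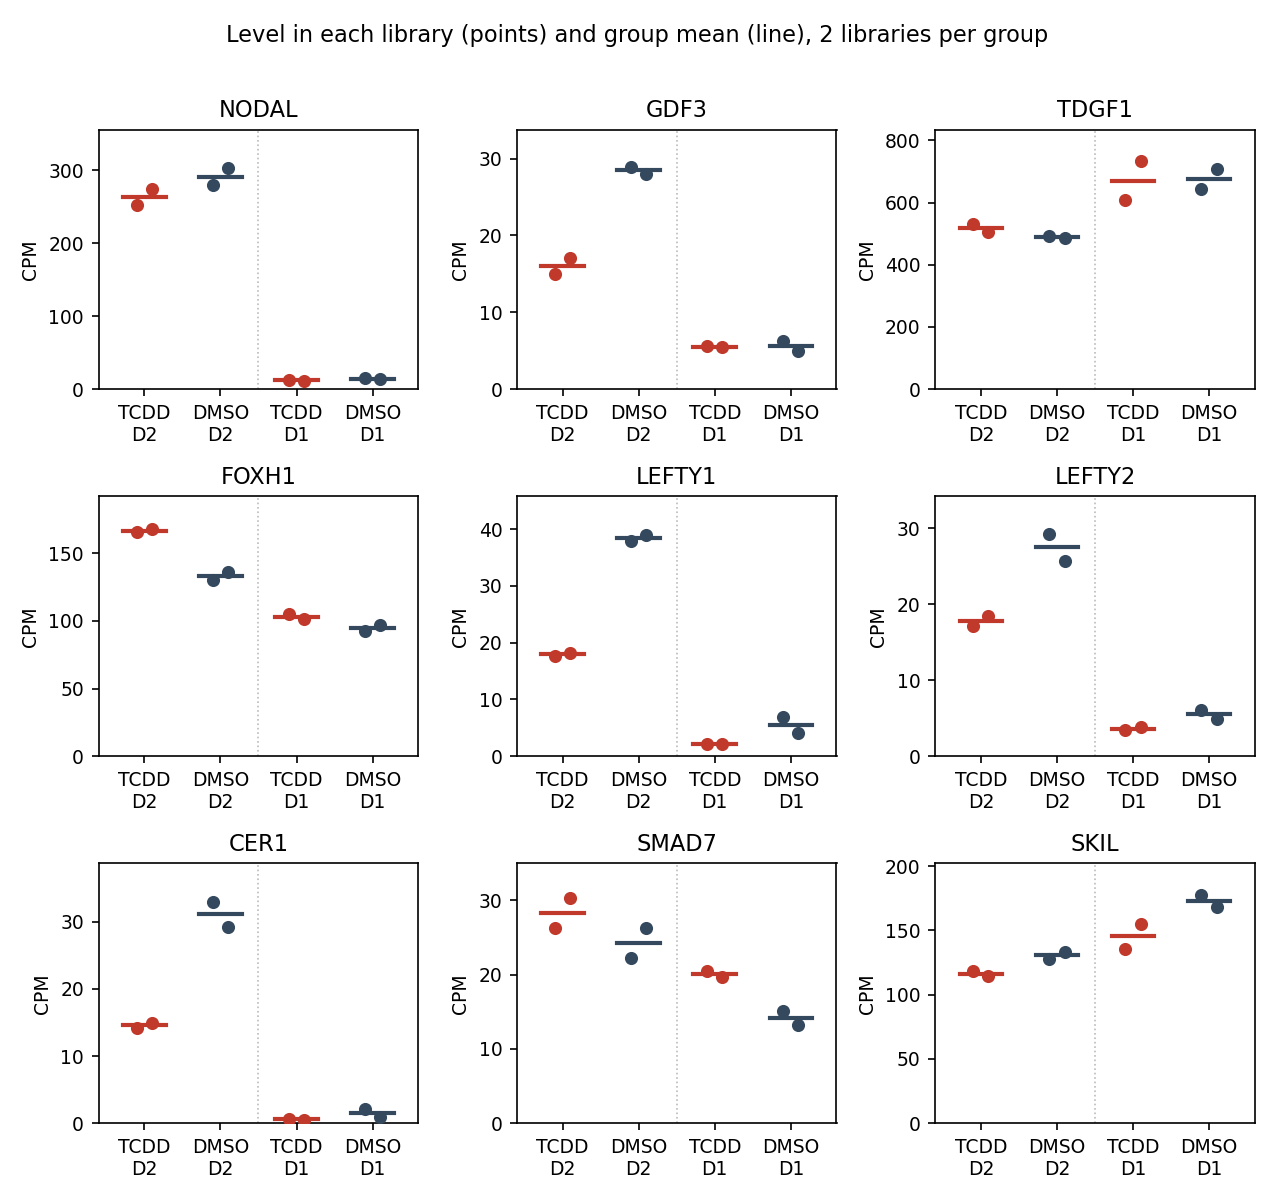
Level of each of the 9 transcripts in CPM (vertical axes, each starting at 0) in every library, with TCDD left of DMSO at D2 and then at D1. Points are libraries and lines are group means of 2. LEFTY1, LEFTY2, CER1 and GDF3 at D2 lie lower in both TCDD libraries than in both DMSO libraries, whereas NODAL at D2 is at 252 and 274 CPM with TCDD and 279.5 and 303 CPM with DMSO.

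NODAL, the ligand, stood at 252 and 274 CPM in the TCDD libraries and 279.5 and 303 CPM in the DMSO libraries of D2. Both TCDD values lay below both DMSO values, but the log2 difference was only -0.15 ± 0.06 (SE) and missed the threshold (edgeR adjusted p = 0.24). At D1 NODAL had 13.1 and 11.2 CPM in the TCDD libraries and 15.4 and 13.8 CPM in the DMSO libraries. The groups again did not overlap, and the log2 fold change of -0.26 ± 0.09 missed the threshold (edgeR adjusted p = 0.248). It passed in none of 15 alternatives at D2 and in 1 of 15 at D1, the one with no filter beyond 1 count (edgeR adjusted p = 0.0221). Of the NODAL exon bases, 41.9% overlap an opposite-strand gene model, AC022532.1, in GENCODE v29, and it is not known whether the counting used strand.

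GDF3, a related ligand of the TGF-beta family that also acts through the EGF-CFC coreceptors, differed with TCDD at D2 and not detectably at D1. At D2 it had 15.0 and 17.1 CPM with TCDD and 28.97 and 28.01 CPM with DMSO. Both TCDD libraries were well below both DMSO libraries, at a log2 difference of -0.83 ± 0.08 (edgeR adjusted p = 5.71e-06), and each of the 8 fits that dropped a library kept the call. At D1 its values were 5.67 and 5.42 CPM with TCDD and 6.21 and 4.96 CPM with DMSO. The groups overlapped there, at -0.01 ± 0.12 (edgeR adjusted p = 0.995). The log2 effect of TCDD at D2 less that at D1 was -0.82 ± 0.15 (edgeR adjusted p = 0.011), and GDF3 was the only one of the 9 to pass that test, in which 0.278% of all genes were lower. This difference lost the call without TCDD replicate 1 of D2, DMSO replicate 1 of D2 or DMSO replicate 2 of D1 (log2 -0.73, -0.80 and -0.67, edgeR adjusted p = 0.0514, 0.0759 and 0.0628).

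TDGF1, the GPI-anchored coreceptor, had 531 and 505 CPM in the TCDD libraries of D2 and 491 and 487.5 CPM in the DMSO libraries. The groups lay close to each other, at a log2 difference of 0.08 ± 0.07 (edgeR adjusted p = 0.644). At D1 TDGF1 was at 607 and 733 CPM with TCDD and 643 and 709 CPM with DMSO. The TCDD replicates spanned the DMSO values, and the fold change was -0.01 ± 0.07 (edgeR adjusted p = 0.979). Its transcribed pseudogene TDGF1P3 shares 40.7% of the 50-base stretches of the TDGF1 transcript, so reads may be split between them. TDGF1P3 counts were 3.57% to 4.37% of TDGF1 counts in the TCDD libraries and 3.82% to 4.41% in the DMSO libraries. Adding both rows gave log2 fold changes of 0.09 ± 0.07 at D2 and -0.02 ± 0.07 at D1 (edgeR adjusted p = 0.609 and 0.967).

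FOXH1, the forkhead factor that brings SMAD complexes to DNA, had 165.5 and 168 CPM with TCDD and 130.4 and 136 CPM with DMSO at D2. Both TCDD libraries were above both DMSO libraries, a 1.25-fold difference with a log2 difference of 0.32 ± 0.05 (edgeR adjusted p = 0.000242), and all 8 fits without 1 library kept the call. At D1 the levels were 105 and 101 CPM with TCDD and 92.9 and 96.97 CPM with DMSO. The TCDD values were the higher ones, but 0.12 ± 0.05 missed the threshold (edgeR adjusted p = 0.343). FOXH1 shares 31.6% of its exon bases with KIFC2, a kinesin gene on the opposite strand. KIFC2 itself was at 41.9 and 41.3 CPM in TCDD libraries and 40.1 and 45.8 CPM in DMSO libraries of D2, with a log2 difference of -0.05 ± 0.06 (edgeR adjusted p = 0.807).

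LEFTY1, a secreted TGF-beta family protein that blocks Nodal and its coreceptor, had 17.7 and 18.2 CPM with TCDD and 37.95 and 39.01 CPM with DMSO at D2. Replicates lay close together and the groups were well apart, at a log2 difference of -1.10 ± 0.11 (edgeR adjusted p = 3.7e-06). At D1 there were 2.22 and 2.18 CPM with TCDD and 6.92 and 4.09 CPM with DMSO. Both TCDD libraries were below both DMSO libraries, which differed between themselves, and the log2 fold change was -1.32 ± 0.19 (edgeR adjusted p = 0.000572). The call held in all 8 fits without 1 library at both times. Without DMSO replicate 1 of D1 the log2 fold change at D1 was -0.90, the smallest of these fits.

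LEFTY2, its neighbouring paralog with the same inhibitory role, had 17.1 and 18.5 CPM with TCDD and 29.2 and 25.7 CPM with DMSO at D2. The groups were apart, at -0.63 ± 0.09 on the log2 scale (edgeR adjusted p = 0.000192). At D1 it was at 3.41 and 3.83 CPM with TCDD and 6.11 and 4.93 CPM with DMSO. The groups did not overlap, at a log2 difference of -0.62 ± 0.13 (edgeR adjusted p = 0.0254). The D2 call held in every alternative, while the D1 call was lost without replicate 1 of TCDD or of DMSO at D1 (log2 -0.53 and -0.45, edgeR adjusted p = 0.158 and 0.483) and in a fit to the 4 D1 libraries alone (edgeR adjusted p = 0.0749).

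The counting may split reads between these paralogs, since 31.3% of the 50-base stretches of the LEFTY1 transcript also occur in LEFTY2 (GENCODE v29). Summed, the pair stood at 34.8 and 36.7 CPM with TCDD and 67.2 and 64.7 CPM with DMSO at D2, and at 5.62 and 6.001 CPM with TCDD and 13.03 and 9.02 CPM with DMSO at D1. The sum was lower with TCDD at both times, at log2 fold changes of -0.88 ± 0.09 at D2 and -0.93 ± 0.13 at D1 (edgeR adjusted p = 4.08e-06 and 0.000466). The effect at D2 minus that at D1 was 0.042 ± 0.16 (edgeR adjusted p = 0.956). LEFTY1 made up 50.8% and 49.6% of the pair's counts with TCDD and 56.5% and 60.3% with DMSO at D2. At D1 its share was 39.4% and 36.2% with TCDD and 53.1% and 45.4% with DMSO. Exact Clopper-Pearson 95% intervals, which cover counting error only, were 48.2% to 53.4% and 46.9% to 52.3% with TCDD and 54.5% to 58.5% and 58.4% to 62.1% with DMSO at D2. At D1 they were 33.2% to 45.9% and 29.9% to 43.0% with TCDD and 48.7% to 57.5% and 40.1% to 50.7% with DMSO. The TCDD shares were below the DMSO shares at D2 with no overlap of the intervals, while at D1 the intervals of both TCDD libraries overlapped that of DMSO replicate 2. In GENCODE v29, 54.2% of LEFTY1 exon bases also belong to another gene model on the same strand.

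CER1 (Cerberus), a secreted cystine-knot protein that binds Nodal, had 14.2 and 15.0 CPM with TCDD and 32.9 and 29.3 CPM with DMSO at D2. Both TCDD values lay well under both DMSO values, at a log2 difference of -1.10 ± 0.11 (edgeR adjusted p = 8.3e-06). This held in all 8 fits without 1 library and missed the threshold with DESeq2 (adjusted p = 0.124). At D1 CER1 was low, with 0.607 and 0.495 CPM in TCDD libraries and 2.13 and 0.915 CPM in DMSO libraries. These are 26 and 18 counts with TCDD and 84 and 36 counts with DMSO. The log2 fold change of -1.45 ± 0.34 passed (edgeR adjusted p = 0.0389) but depended on DMSO replicate 1, without which it was -0.72 (edgeR adjusted p = 0.807). The D1 call held in only 1 of the 8 fits that dropped a library, the one without DMSO replicate 2 of D1, and was also lost with DESeq2, the robust edgeR fit and the 4 D1 libraries alone (adjusted p = 0.0995, 0.157 and 0.12).

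SMAD7, an inhibitory SMAD that brings ubiquitin ligases to the receptors and is itself a SMAD target, had 26.3 and 30.4 CPM with TCDD and 22.3 and 26.3 CPM with DMSO at D2. The groups overlapped, at a log2 difference of 0.22 ± 0.09 (edgeR adjusted p = 0.24). At D1 it had 20.5 and 19.7 CPM with TCDD and 15.1 and 13.3 CPM with DMSO. Both TCDD libraries were above both DMSO libraries, a 1.42-fold difference with a log2 difference of 0.50 ± 0.09 (edgeR adjusted p = 0.00824). The D1 call was lost without DMSO replicate 2 of D1 (edgeR adjusted p = 0.105). The effect at D2 minus that at D1, -0.29, missed the threshold (edgeR adjusted p = 0.426).

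SKIL (SnoN), a nuclear corepressor of SMAD complexes that is degraded when the pathway is activated, had 118 and 114 CPM with TCDD and 128 and 133 CPM with DMSO at D2. The TCDD values were the lower ones, at -0.17 ± 0.06 on the log2 scale (edgeR adjusted p = 0.157), and 4 of 15 alternatives passed. At D1 the values were 136 and 155 CPM with TCDD and 177 and 168 CPM with DMSO. The groups did not overlap, at a log2 difference of -0.25 ± 0.06 (edgeR adjusted p = 0.0339). That call held in only 1 of the 8 fits that dropped a library, the one without TCDD replicate 2 of D1. Over these 8 fits the log2 difference ran from -0.35 to -0.16. The call was also lost in a fit to the 4 D1 libraries alone (edgeR adjusted p = 0.147).

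**Figure D2:**
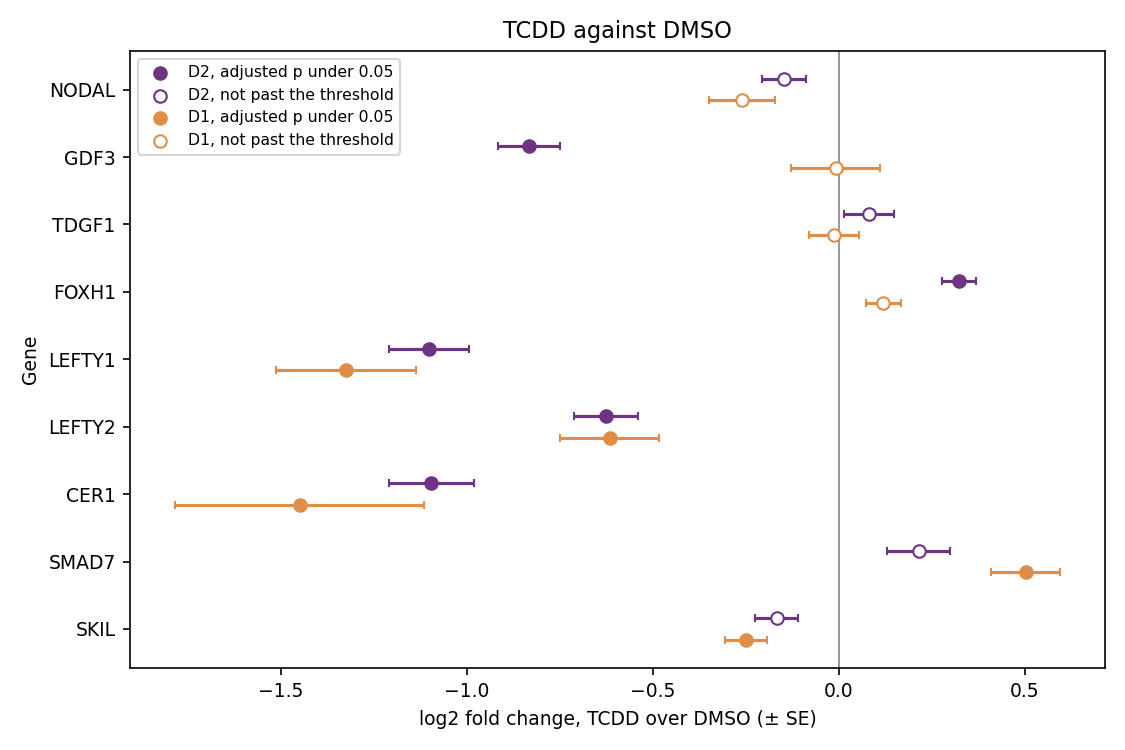
Log2 fold change of TCDD over DMSO (horizontal axis, ± SE) for each of the 9 genes at D2 and D1, with filled points where the edgeR adjusted p was under 0.05. LEFTY1, LEFTY2 and CER1 are filled and left of 0 at both times, GDF3 is at -0.83 at D2 and -0.01 at D1, and FOXH1 and SMAD7 lie right of 0.

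Within each library the inhibitors were also set against NODAL. LEFTY1 and LEFTY2 together had 13.8 and 13.4 counts per 100 NODAL counts with TCDD and 24 and 21.4 with DMSO at D2, and 43 and 53.6 with TCDD and 84.4 and 65.6 with DMSO at D1. CER1 had 5.61 and 5.46 counts per 100 NODAL counts with TCDD and 11.8 and 9.67 with DMSO at D2, and 4.64 and 4.42 with TCDD and 13.8 and 6.65 with DMSO at D1. In all 4 of these comparisons both TCDD ratios were below both DMSO ratios. The ratios use the same counts as the tests above and are not independent of them. The ratios were not tested, and a lower ratio does not tell which of its transcripts changed. Those of CER1 at D1 rest on 18 to 84 CER1 counts in a library.

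**Figure D3:**
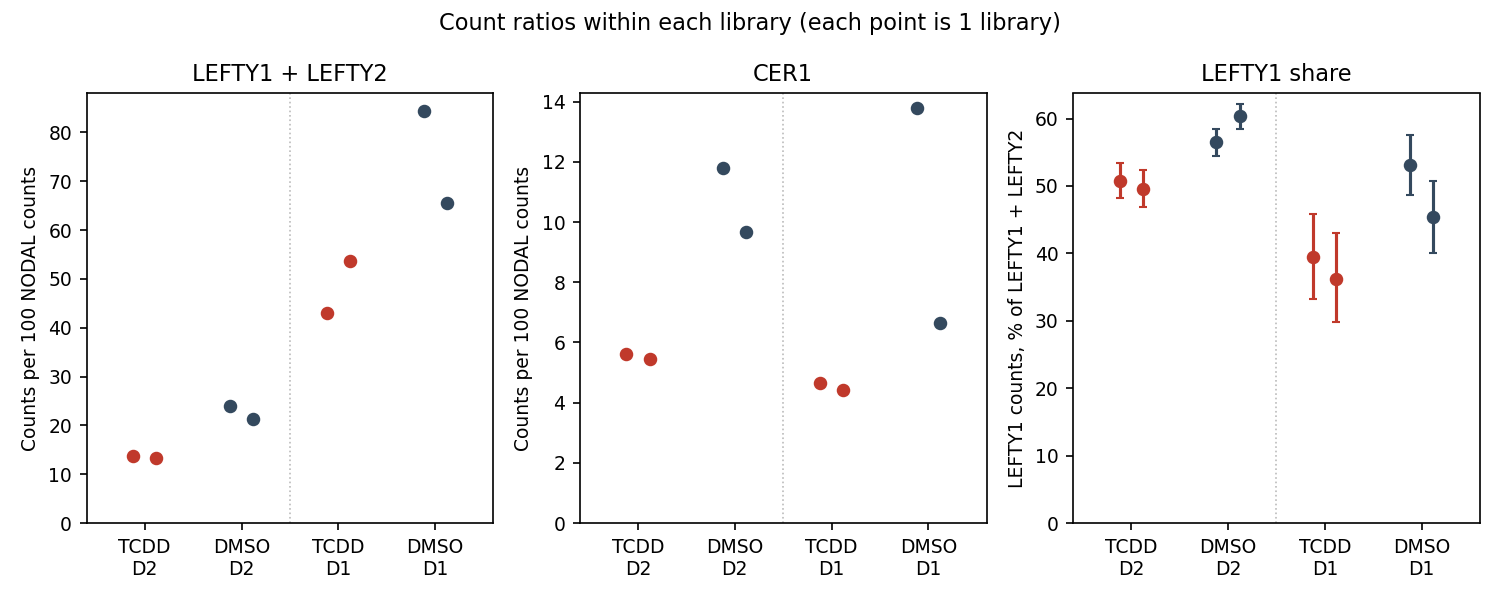
LEFTY1 plus LEFTY2 counts and CER1 counts per 100 NODAL counts, and the percentage of LEFTY1 in the LEFTY pair, in each library (points), with TCDD left of DMSO at D2 and then D1. Bars on the panel of LEFTY1 shares are exact 95% counting intervals. TCDD points lie below the DMSO points of the same time in each panel, and the LEFTY ratio at D2 is 13.4 to 13.8 with TCDD and 21.4 to 24 with DMSO.

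In D2 against D1 all 9 transcripts changed in both treatments, 7 higher and 2 lower at D2. With TCDD 33.1% of all genes were higher and 32.2% lower at D2, and with DMSO 32.5% and 30.7%, so a call in itself says little in this comparison. Culture time, the differentiation medium and a possible batch cannot be told apart here. The median log2 fold change of the 9 was 1.52 with TCDD and 2.31 with DMSO, against -0.002 and 0.009 over all genes. The comparisons share no library with each other, but each shares libraries with the TCDD comparisons.

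NODAL and CER1 had the largest rises of the 9 in both treatments. NODAL was 21.6-fold higher at D2 than at D1 with TCDD and 19.95-fold higher with DMSO, at log2 fold changes of 4.43 ± 0.08 and 4.32 ± 0.07 (edgeR adjusted p = 1.69e-18 and 1.84e-18). CER1 was 26.05-fold higher with TCDD and 20.4-fold with DMSO, at 4.70 ± 0.22 with TCDD and 4.35 ± 0.16 with DMSO (edgeR adjusted p = 2.78e-12 and 1.57e-13), and its D1 levels rest on few counts. With a library left out, the log2 rise of CER1 ran from 4.58 to 4.87 with TCDD and from 3.87 to 5.08 with DMSO, where the extremes were without replicate 2 and without replicate 1 of DMSO at D1. LEFTY1 was 8.15-fold higher with TCDD and 6.98-fold with DMSO, and LEFTY2 4.93-fold with TCDD and 4.97-fold with DMSO (edgeR adjusted p from 1.31e-12 to 1.45e-11). The log2 rise with TCDD minus that with DMSO was 0.22 for LEFTY1, -0.011 for LEFTY2 and 0.35 for CER1, and missed the threshold for each (edgeR adjusted p = 0.794, 0.991 and 0.803). GDF3 was 2.88-fold higher at D2 with TCDD and 5.10-fold with DMSO (edgeR adjusted p = 4.7e-10 and 6.13e-13).

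FOXH1 and SMAD7 rose less. FOXH1 was 1.61-fold higher at D2 with TCDD and 1.40-fold with DMSO (edgeR adjusted p = 4.14e-10 and 4.85e-08), and SMAD7 1.41-fold with TCDD and 1.72-fold with DMSO (edgeR adjusted p = 7.54e-05 and 7.15e-07). The 2 that fell were the coreceptor TDGF1, by 0.37 on the log2 scale with TCDD and by 0.47 with DMSO (edgeR adjusted p = 9.86e-05 and 8.44e-06), and SKIL, by 0.32 with TCDD and by 0.40 with DMSO (edgeR adjusted p = 8.04e-05 and 6.04e-06). All 9 calls with TCDD and all 9 with DMSO held in every fit without 1 library and in every other alternative.

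**Figure D4:**
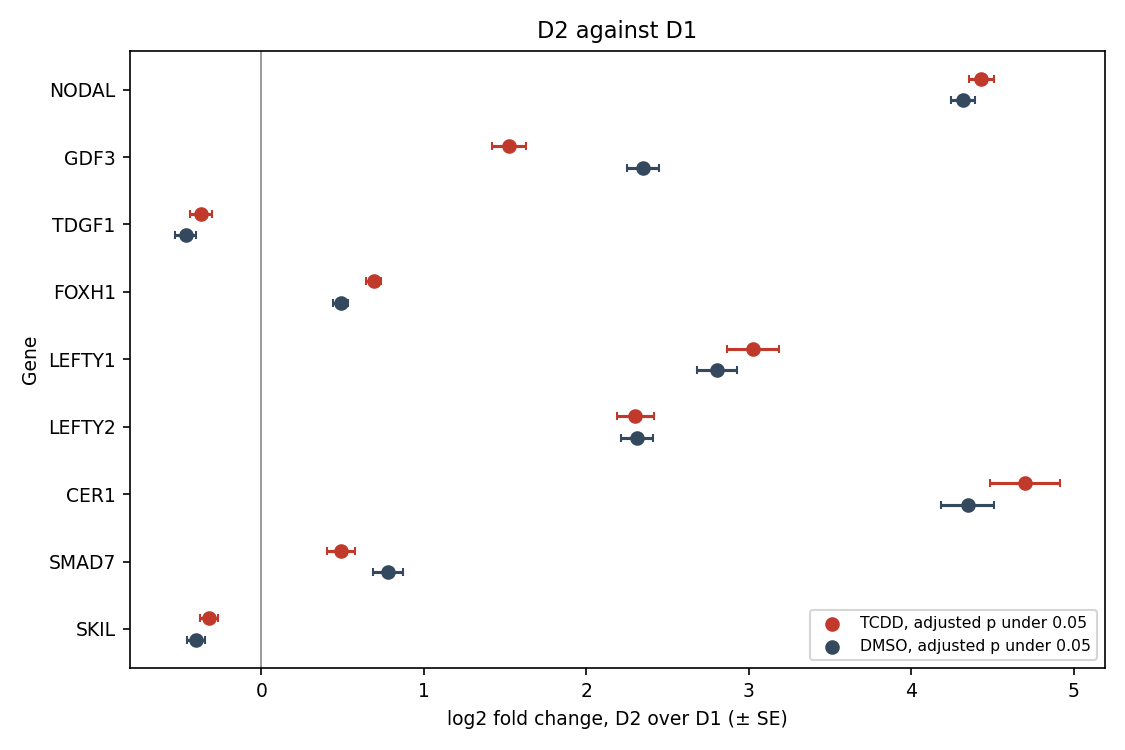
Log2 fold change of D2 over D1 (horizontal axis, ± SE) for each of the 9 genes with TCDD and with DMSO. All points passed at an edgeR adjusted p of 0.05. NODAL and CER1 lie above 4 in both treatments, TDGF1 and SKIL lie below 0, and GDF3 is at 1.52 with TCDD and 2.35 with DMSO.

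Per kilobase of exon (GENCODE v29, not necessarily the annotation counted on), the order of the levels differed between the times. At D2 TDGF1 (202 CPM per kb with TCDD and 191 with DMSO) and NODAL (158 with TCDD and 175 with DMSO) led, with FOXH1 at 66.6 with TCDD and 53.2 with DMSO. With TCDD at D2, SKIL (16.1), GDF3 (12.9), CER1 (11.98), LEFTY1 (11.03), LEFTY2 (7.76) and SMAD7 (6.25) followed. With DMSO at D2, CER1 (25.6), LEFTY1 (23.7), GDF3 (22.99), SKIL (18.1), LEFTY2 (11.98) and SMAD7 (5.37) followed. CER1, LEFTY1 and GDF3 thus stood below SKIL with TCDD and above it with DMSO. At D1 TDGF1 was highest, at 261 CPM per kb with TCDD and 264 with DMSO, before FOXH1 (41.2 with TCDD and 37.9 with DMSO) and SKIL (20.1 with TCDD and 23.9 with DMSO). NODAL was at 7.29 with TCDD and 8.77 with DMSO, and CER1 was last at 0.453 with TCDD and 1.25 with DMSO. Between them lay GDF3, SMAD7, LEFTY1 and LEFTY2, from 1.35 to 4.51 over both treatments. Some neighbours in this order overlapped over their libraries and are not ranked against each other. At D2 these were GDF3 and CER1 with TCDD, and LEFTY1 and GDF3 with DMSO. At D1 they were GDF3 and SMAD7 with TCDD, and GDF3 and LEFTY1, and LEFTY1 and SMAD7, with DMSO.

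Of 53 other pathway genes on 6 lists, 49 were tested. At D2 with TCDD 1 of them was higher, against 1.41% of all genes tested, and 10 were lower, against 1.54%. None of the receptors and coreceptors, convertases or SMADs and SMAD partners passed. Of the other TGF-beta family ligands, 1 of 7 was lower. Of the 14 other inhibitors and feedback genes 1 was higher and 1 lower, and 8 of the 12 targets were lower. Among the targets, MIXL1 had 119.5 and 137 CPM with TCDD and 308 and 286 CPM with DMSO, EOMES had 101 and 111 CPM with TCDD and 196.5 and 186 CPM with DMSO, and T (Brachyury) had 45.3 and 51.98 CPM with TCDD and 92.7 and 88.3 CPM with DMSO. Their log2 fold changes were -1.21, -0.86 and -0.90 (edgeR adjusted p = 5.37e-10, 1.55e-08 and 8.06e-08), and all are streak transcription factors. The median of the 12 targets was -0.81, against 0.001 over all genes. The other calls were TGFB1 (-0.48), a TGF-beta ligand, BAMBI (-0.34), a pseudoreceptor that limits signalling, and NEDD4L (0.21), a ubiquitin ligase for activated SMADs (edgeR adjusted p = 0.0254, 0.0465 and 0.0282).

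The lower levels of LEFTY1, LEFTY2, CER1 and GDF3 at D2 stood beside primitive streak markers of which 5 of 7 were called lower, against 1.54% of all genes tested. These were T, MIXL1, EOMES, GSC and WNT3. TBX6 (log2 -0.12) and MESP1 (log2 0.35, higher with TCDD) did not pass, and none of the 7 was at 0 in any library. The 5 that passed are among the 8 lower targets above, so both counts share them. The part of cell composition in these results was not tested. The 6 trophoblast and amnion markers, with CGA at 0 throughout, summed to 15.6 to 18.1 CPM with TCDD and 9.20 to 10.6 CPM with DMSO at D2. Most of that sum was CDX2, at 14.03 and 16.51 CPM with TCDD and 7.89 and 9.49 CPM with DMSO, a gene that posterior primitive streak also expresses. The part of these markers was not tested either.

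At D1 with TCDD 3 of the 49 were higher, against 0.764% of all genes tested, and 0 lower, against 0.434%. The 3 were SMAD3 (log2 fold change 0.24), a receptor-activated SMAD, and the targets CYP26A1 (0.54), which degrades retinoic acid, and LHX1 (1.87), a LIM homeobox factor with a mean of 0.661 CPM in TCDD libraries against 0.178 CPM in DMSO libraries (edgeR adjusted p = 0.0354, 0.0135 and 0.0253). None of the 7 other TGF-beta family ligands, 7 receptors and coreceptors, 3 convertases or 14 other inhibitors tested passed at D1. The log2 effect of TCDD at D2 less that at D1 passed for 3 of the 49, all targets and all lower, against 0.278% of all genes. It was -1.10 for MIXL1, -2.64 for LHX1 and -0.97 for CYP26A1 (edgeR adjusted p = 0.0281, 0.0261 and 0.00204).

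In D2 against D1, 22 of the 49 were higher, against 33.1% of all genes tested, and 17 lower, against 32.2%, with TCDD. With DMSO 22 were higher, against 32.5% of all genes, and 15 lower, against 30.7%. The lower counts were near the share of all genes. Of the 12 targets 10 were higher and LHX1 lower with TCDD, while all 12 were higher with DMSO. FST (follistatin), which binds activins, was higher at D2 by 4.54 with TCDD and 4.30 with DMSO on the log2 scale, and PMEPA1, a SMAD-induced feedback gene, by 2.06 with TCDD and 2.10 with DMSO (edgeR adjusted p from 1.02e-19 to 1.75e-14). The receptor ACVR1B was higher by 0.42 with TCDD and 0.53 with DMSO. TGFBR2 (-0.82 with TCDD and -0.90 with DMSO) and the coreceptor TGFBR3 (-0.90 with TCDD and -0.94 with DMSO) were lower (edgeR adjusted p from 6.53e-08 to 3.65e-06 for these receptors). None of the 7 other TGF-beta family ligands tested was higher in either treatment, with 6 lower with TCDD and 5 with DMSO. Of these 7, NODAL and GDF3, only NODAL and GDF3 rose.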

How the data were processed

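RNA sequencing of 8 Mel1 libraries gave the authors' deposited raw count per gene symbol. Per the submitters' processing notes, the tools were cutadapt 1.9.1 for trimming, STAR for alignment to hg19 and featureCounts 1.5.1 for counting. Not given in the sources used here are the annotation, the strand setting and how multi-mapping reads were counted, so paralogs and overlapping genes may share reads. Groups came from the sample titles.

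From the counts, R 4.3.3 and edgeR 4.0.16 with limma 3.58.1 were used to filter low genes (filterByExpr), scale libraries by TMM and fit a mean per group over all 8 libraries, with two-sided quasi-likelihood F tests and Benjamini-Hochberg adjustment over 17268 genes. The threshold for a call was an adjusted p of 0.05. The 5 comparisons were TCDD against DMSO at each time, D2 against D1 in each treatment, and the difference of the TCDD effects. The common biological coefficient of variation was 3.86%. Replicates differed by more than sampling noise, with a chi-square per gene of 3.21 to 6.59 over genes with at least 20 counts, so each library was 1 sample.

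The alternatives were RLE factors, no composition scaling, no filter beyond 1 count, DESeq2 1.42.0, a fit to the 4 libraries compared, a replicate block, each library left out, and summed counts of LEFTY1 with LEFTY2 and of TDGF1 with TDGF1P3. A robust edgeR fit was added after seeing the data. The genes, lists, tests and rule for named genes (all 9, up to 3 genes per list with the smallest p, and fixed check genes) were chosen with earlier results of these data known. KIFC2 and TDGF1P3 were named for their place or sequence.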

Additional observations from a re-analysis of the deposited data

Results flagged for a closer look

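GDF3 was the only one of the 9 genes whose TCDD effect differed between the times by a test of the difference itself. The log2 effect at D2 minus that at D1 was -0.82 ± 0.15 (edgeR adjusted p = 0.011). At D2 both TCDD libraries (15.0 and 17.1 CPM) lay below both DMSO libraries (28.97 and 28.01 CPM), whereas at D1 the TCDD libraries (5.67 and 5.42 CPM) lay between the DMSO libraries (6.21 and 4.96 CPM). The difference was past the threshold in 5 of the 8 fits that left out a library and in 6 of 6 other alternatives.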

How the results depend on the processing

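Directions of the called results and the calls of all 9 genes for D2 against D1 in both treatments were the same under every alternative run. Leaving out 1 library, the genes called ranged from 80 to 265 for TCDD at D1 (207 with all libraries), 198 to 648 at D2 (509), 9746 to 11289 for time with TCDD (11269), 9139 to 11248 for time with DMSO (10913) and 29 to 275 for the difference of TCDD effects (133). Of the 9 genes, 2 to 4 were then called at D1 (5 with all), 5 to 6 at D2, 9 in both time comparisons and 0 to 1 for the difference. The summed LEFTY pair ran from -1.17 to -0.64 at D1 and from -0.25 to 0.28 for the difference, and TDGF1 with TDGF1P3 from -0.16 to 0.11 at D1 and -0.020 to 0.24 for the difference. With no filter beyond 1 count, 505, 908 and 468 genes were called at D1, at D2 and for the difference. In a fit to the 4 D1 libraries, 114 genes and 2 of the 9 were called. These fits change the genes or the samples tested. Without 1 library, some uncalled values changed sign, at D1 for GDF3 (-0.16 to 0.16) and TDGF1 (-0.16 to 0.12), and in the difference for LEFTY1 (-0.20 to 0.55), CER1 (-0.38 to 0.84), LEFTY2 (-0.17 to 0.14, and 0.042 summed with LEFTY1), TDGF1 (-0.033 to 0.24) and SKIL (-0.011 to 0.18). The cause was not tested. No composition scaling moved the median of all genes to -0.11 for D2 against D1 with TCDD, and the share of calls that were higher to 37.4% (50.7% with TMM) with TCDD and 40.6% (51.5%) with DMSO. With the replicate block 225, 515, 11234, 10901 and 159 genes were called in the order above, and none of 65 results changed. The same-numbered libraries correlated at -0.1 to 0.11 in their deviations from group means, so the numbers were not taken as pairs. CER1 at D1 rested on 18 to 84 counts in a library.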

Other observations

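The genes most like each of the 9 were ranked by Pearson's r of log2 CPM over the 8 libraries, among 13717 genes whose mean CPM was 1 or more. The libraries fall apart by time, so these values mostly follow the difference between D2 and D1. NODAL was most like ID2 (r = 0.9997), a BMP target, LEFTY1 most like ACTL6A (0.9943), LEFTY2 most like SOCS6 (0.9986) and CER1 most like BMPR2 (0.9983), a BMP receptor. GDF3 was most like SUCLA2 (0.9955), TDGF1 most like TFAP2C (0.9926), FOXH1 most like PQBP1 (0.9938), SMAD7 most like NPRL2 (0.9832) and SKIL most like NMI (0.982). GALNT13 was among the 3 genes most like LEFTY2 (0.9969) and among those most like CER1 (0.9978).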
